A study of Mus musculus with 2 samples.

Results

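The mitochondrial ribosomal protein genes are the nuclear genes for the protein components of the mitochondrial ribosome. Members were the protein-coding genes of the GENCODE M21 mouse annotation whose symbol starts with Mrpl or Mrps followed by a number, which gave 78 of 21938 protein-coding genes outside the mitochondrial genome. By symbol, 49 belong to the large and 29 to the small subunit. Mrps30 and Mrps18a were counted by their symbols, although their proteins sit in the large subunit. The study profiled open chromatin by DNase-seq, in which DNase I cuts accessible DNA and the density of cuts marks regulatory elements, in the right cerebral cortex of 2-month-old male B6CASTF1/J mice, first-generation offspring of a C57BL/6J by CAST/EiJ cross. The peaks and footprints used were not split by allele, and no treatment or second group was part of the design. There was 1 group of 2 libraries. The labels call them biological replicates 1 and 2, number the mouse of replicate 1 as 5 and that of replicate 2 as 6, and give a single donor record to both. With a single group there is no contrast between conditions, so every comparison is between the members and other genes of the same libraries, and no p-value was computed.

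The mitochondrial ribosome translates the few messenger RNAs that the mitochondrial genome encodes, all of them for subunits of the respiratory chain and the ATP synthase. Its ribosomal RNAs come from mitochondrial DNA, whereas its proteins are encoded in the nucleus, made in the cytosol and imported. Some of the proteins descend from bacterial ribosomal proteins and others are specific to mitochondria. NRF1 and the ETS-family factor GABP (also called NRF2) are textbook regulators of nuclear genes for mitochondrial proteins, and YY1 is a zinc-finger factor that often binds close to transcript starts. The cortex, with its high demand for ATP at synapses, depends on respiration.

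The libraries held 91818 peaks in replicate 1 and 75245 in replicate 2 in the smaller, stricter of the deposited peak sets, and 394531 and 241645 footprints, short stretches protected from cutting inside accessible DNA. Peak height, the deposited signal value of a peak, took only whole multiples of a smallest step, to within 0.05 of it, for 100% of peaks. The step was 0.00626 in replicate 1, and in replicate 2 it was 0.00768. No label or file header states how heights were scaled or what a step counts. Heights were therefore compared within a library, and sequencing depth is unknown. The labelled tissue was checked with neuronal genes. Snap25, Syt1, Camk2a and Neurod6 had a promoter peak in both libraries and Slc17a7 and Tbr1 only in replicate 1. None of the 4 liver genes Alb, Apoa2, Ttr and Serpina1a had one. Of the muscle genes Acta1, Myh1 and Ckm only Ckm did. The tallest Ckm peak was centred 784 bp from a start in replicate 1 and 804 bp in replicate 2. Ckm had 0 footprints within 250 bp of a start in either library. The tissue is a mixture of cell types, so fewer cells with an open promoter and a less open promoter in every cell cannot be told apart.

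Some footprints of the members carried the consensus letters of known factors, and examples are printed here because the counts further on rest on them. A footprint was counted as found in both libraries where the intervals of replicates 1 and 2 overlapped. For each of the ETS, NRF1 and YY1 consensus letters, the 3 such footprints at the members with the tallest promoter peaks are shown with 5 bases added on each side, at most 30 bases, 5′ to 3′ on the strand of the member. Capitals mark the consensus: CCGGAAG for ETS, GCGCANGCG for NRF1 (N is any base) and AAGATGGCG for YY1, on either strand. The letters are the GRCm38.p6 (mm10) reference, that is C57BL/6J. Differences carried by the CAST/EiJ chromosome are not shown.
Mrpl17 NRF1 footprint, chr7:105811081-105811109, minus strand: gccgagttactGCGCATGCGtcctctgag
Mrpl45 NRF1 footprint, chr11:97315721-97315750, plus strand: tggagagcgtgCGCGTGCGCgcgactcacc
Mrpl44 NRF1 footprint, chr1:79775972-79776001, plus strand: aagaagcacttGCGCACGCGcagtacacta
Mrpl17 ETS footprint, chr7:105811311-105811339, minus strand: cccggcatgctccgcCCGGAAGgcgcctc
Mrpl34 ETS footprint, chr8:71464887-71464916, plus strand: tcCCGGAAGgccccgcggcaacaagaacta
Mrpl18 ETS footprint, chr17:12916311-12916340, minus strand: ctgaaaacgCCGGAAGtagggggctgcggg
Mrpl37 YY1 footprint, chr4:107066824-107066851, minus strand: ctgcacgggcaAAGATGGCGgcgtccag
Mrps10 YY1 footprint, chr17:47368903-47368929, plus strand: cAAGATGGCGgcgcgcgcagcgtgtgt
Mrpl46 YY1 footprint, chr7:78783011-78783037, minus strand: gacagaAAGATGGCGgcgcccgtaggg
The NRF1 footprint of Mrpl17 was centred 4 bp and that of Mrpl45 19 bp from the nearest transcript start, both overlapping an exon of the gene. The NRF1 footprint of Mrpl44 overlapped an exon of its divergent neighbour Wdfy1. The ETS footprints of Mrpl17 and Mrpl34 lay in no annotated exon, 226 bp and 45 bp from a start, and that of Mrpl18 lay 24 bp from a start in exons of both Mrpl18 and Tcp1. In the YY1 footprints of Mrpl37, Mrps10 and Mrpl46, which overlapped an exon of the named gene, the letters read in the direction of transcription. The capitals of the Mrpl17 ETS and the Mrpl46 YY1 footprints lay within the padded footprint of replicate 1. They were not wholly within that of replicate 2, so these counted as in a footprint in replicate 1 only. The capitals of the Mrpl37 YY1 footprint lay in no strict peak in either library. Those of the Mrpl17 ETS footprint lay in a strict peak in replicate 2 only.

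Many members share their promoter with a gene on the other strand, and the whole stretch between both starts is then short enough to print. The 5 stretches below contain an ETS or NRF1 match in capitals and overlap no annotated exon. Each runs from the base after the partner's start to the base before the member's start, 5′ to 3′ on the member's strand, so a match on the other strand appears as its reverse complement (CTTCCGG for ETS).
Helq to Mrps18c, chr5:100798599-100798626, plus strand: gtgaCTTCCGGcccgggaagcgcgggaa
Ppp1r10 to Mrps18b, chr17:35916390-35916433, minus strand: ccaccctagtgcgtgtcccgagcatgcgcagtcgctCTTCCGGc
Ptcd2 to Mrps27, chr13:99344706-99344785, plus strand: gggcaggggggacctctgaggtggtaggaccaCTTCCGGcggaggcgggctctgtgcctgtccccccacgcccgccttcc
Twnk to Mrpl43, chr19:45006443-45006557, minus strand: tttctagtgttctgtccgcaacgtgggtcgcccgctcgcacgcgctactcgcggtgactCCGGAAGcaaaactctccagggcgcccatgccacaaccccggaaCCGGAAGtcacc
Lrrc46 to Mrpl10, chr11:97041408-97041559, plus strand: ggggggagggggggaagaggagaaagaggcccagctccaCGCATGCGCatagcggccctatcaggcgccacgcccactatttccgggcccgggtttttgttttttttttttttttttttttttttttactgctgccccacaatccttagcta
The Mrps18c and Helq starts lay 29 bp apart, those of Mrps18b and Ppp1r10 45 bp, of Mrps27 and Ptcd2 81 bp, of Mrpl43 and Twnk 116 bp and of Mrpl10 and Lrrc46 153 bp. The stretch between Mrpl43 and Twnk, the mitochondrial DNA helicase, held 2 ETS matches.

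All 78 members had a strict peak within 1000 bp of a transcript start in replicate 1 and all 78 in replicate 2, a share of 100% ± 0 (SD, n = 2). Among all 21938 protein-coding genes the share was 63.4% in replicate 1 and 59.3% in replicate 2. The other genes of mitochondrial translation on 5 lists were open to the same extent, with a promoter peak in both libraries for 71 of 71. They comprised 5 mitoribosomal proteins with other symbols such as Dap3 and Ptcd3, 13 translation factors, 25 assembly factors, 22 genes of aminoacyl-tRNA synthesis and 6 of mitochondrial transcription and messenger RNA handling. For comparison, 80 of 83 cytosolic ribosomal protein genes and 79 of 85 oxidative phosphorylation subunit genes had a peak in each library.

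Cutting above background was also listed base by base by the authors as a false discovery rate. Each of the 78 members had bases listed in both libraries within 1000 bp of a start. Neither this share nor the median that follows was computed over other protein-coding genes. Listed bases do not require a peak. The liver gene Ttr, without a promoter peak, had a lowest rate of 0.000996 in replicate 1 and 0.00314 in replicate 2. The median over members of the lowest rate was 3.29e-41 in replicate 1 and 3.39e-28 in replicate 2. The weakest member by this measure in both libraries was Mrpl53, a mitochondria-specific large subunit protein, with a lowest rate of 2.95e-09 in replicate 1 and 6.01e-06 in replicate 2. Around the principal start, the most 5′ start of the best-ranked coding transcript, a median of 800 bases per member lay under a rate of 0.001 in replicate 1 and 683.5 in replicate 2, against 896 and 663 for protein-coding genes with a promoter peak in both libraries. The members' open stretch was therefore below that of other open genes in replicate 1 and above it in replicate 2.

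The peaks sat on the starts. The tallest promoter peak covered an annotated transcript start for 73 members (93.6%) in replicate 1 and 72 (92.3%) in replicate 2, against 73.6% and 72.8% of the 12882 protein-coding genes with a promoter peak in both libraries, called open genes from here on. Its centre lay a median of 35 bp from a start in replicate 1 and 31 bp in replicate 2, against 63 bp in both for open genes. Related groups were like the members, with 36 bp and 31.5 bp for cytosolic ribosomal protein genes. Oxidative phosphorylation subunit genes had 34 bp and 37 bp. The median width of the members' tallest peaks was 230 bp and 240 bp, against 240 bp in both libraries for open genes. By the mean of both libraries, the widest peaks were those of Mrpl38, a central protuberance protein of the large subunit, at 660 bp in replicate 1 and 640 bp in replicate 2, of Mrps6, at 480 bp and 520 bp, and of Mrpl40, at 420 bp and 460 bp. In replicate 1 alone the peak of Mrpl48, at 560 bp, was wider than the last 2 of these, but in replicate 2 it had 300 bp.

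The tallest promoter peaks of the members had a median height of 3.64 in replicate 1 and 2.44 in replicate 2. Their mean was 3.04 ± 0.852 (SD, n = 2), where the SD mixes the unstated scaling of the libraries with signal. The median over all protein-coding genes with a promoter peak in the library was 3.02 in replicate 1 and 2.17 in replicate 2. In replicate 1, 56 of 78 members (71.8%) stood above that median and in replicate 2, 49 (62.8%). In replicate 1, 13 (16.7%) were in the top decile of all genes with a peak, above 6.10, and 0 in the lowest, below 0.920, and in replicate 2, 11 (14.1%) were above 4.21 and 0 below 0.768. With the heights of all promoter peaks of a gene summed, the medians were 4.36 and 2.98, against 4.26 and 2.89 for all protein-coding genes with a promoter peak. The spread among members was 4.64-fold from lowest to highest in replicate 1 and 5.62-fold in replicate 2. In steps, the lowest member had 310 and the highest 1438 in replicate 1, and the corresponding figures for replicate 2 were 138 and 776.

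**Figure D1:**
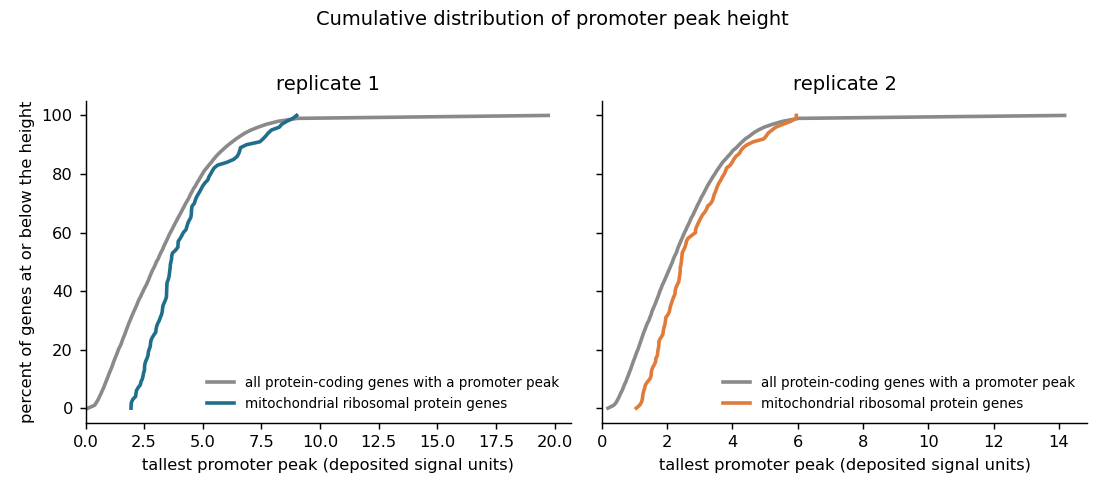
Percent of genes (vertical axis) whose tallest promoter peak is at or below the height on the horizontal axis (deposited signal units), per library, for the 78 mitochondrial ribosomal protein genes (coloured) and all protein-coding genes with a promoter peak (grey). The members' curves start at 1.94 in replicate 1 and 1.06 in replicate 2 and lie to the right of the grey curves through the lower and middle heights.

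The members' medians lay below those of related gene groups. Cytosolic ribosomal protein genes had a median height of 4.92 in replicate 1 and 3.25 in replicate 2, and oxidative phosphorylation subunit genes 4.30 and 2.93. The 71 other mitochondrial translation genes had medians of 3.79 and 2.50, close to the members'. Within the members, the large subunit had a median of 3.94 and 2.60 and the small subunit 3.37 and 2.35. The 48 members of bacterial type had medians of 3.56 and 2.41 and the 30 mitochondria-specific ones 3.83 and 2.50. The ranges of the subunits overlapped, from 1.95 to 8.999 for the large and from 1.94 to 6.63 for the small subunit in replicate 1.

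**Figure D2:**
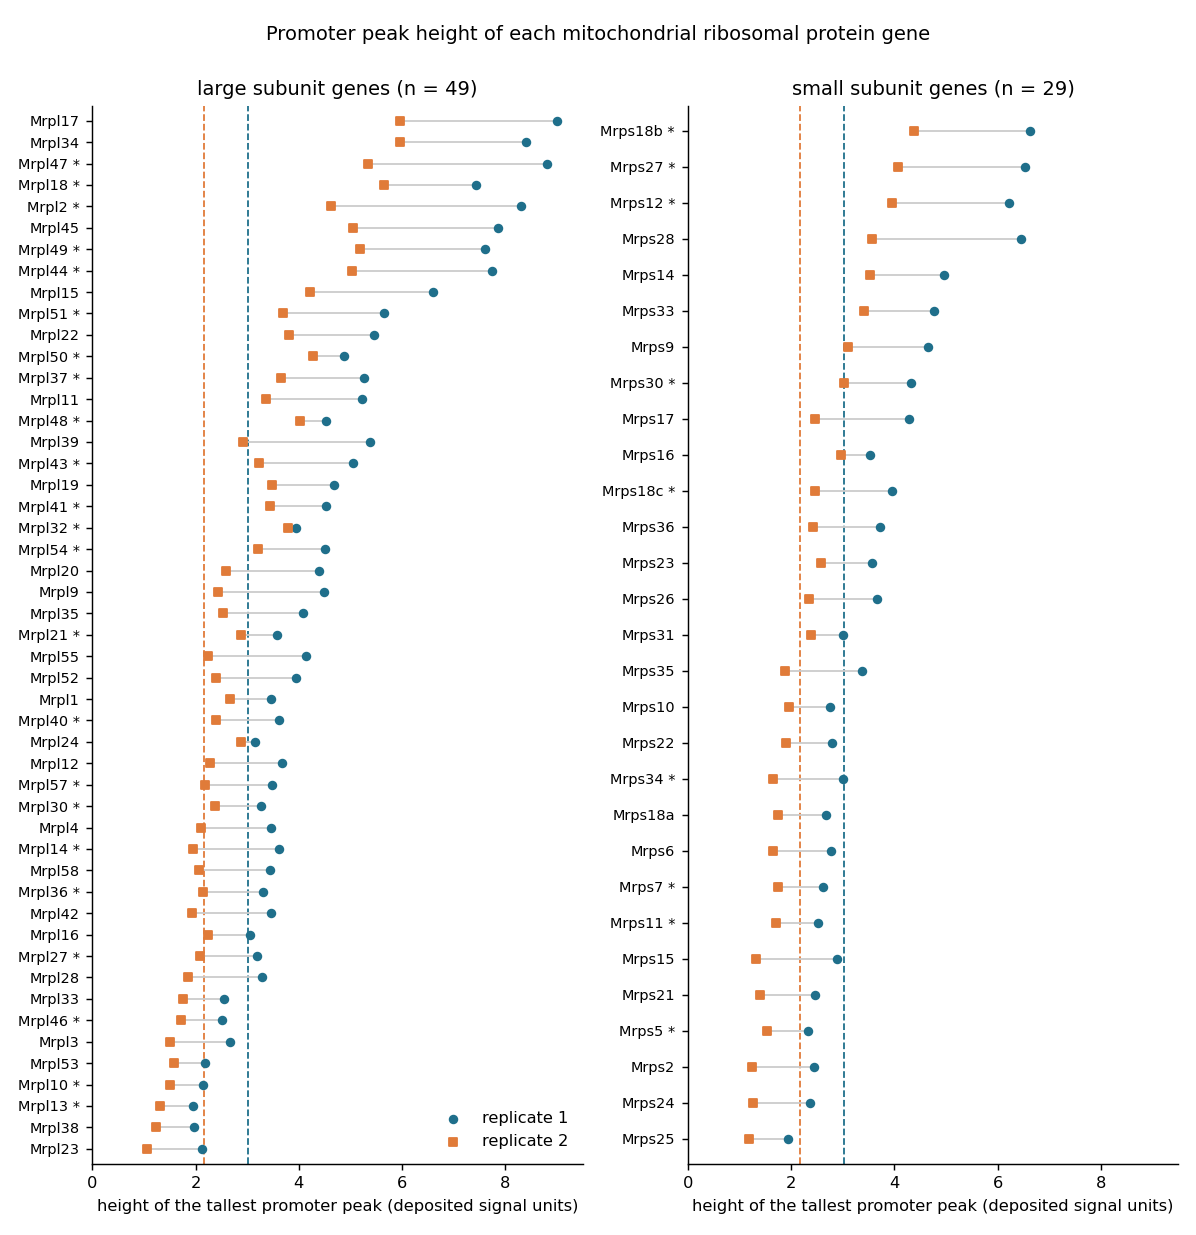
Height of the tallest promoter peak (horizontal axis, deposited signal units) of each of the 49 large and 29 small subunit genes, ordered by the mean, with replicate 1 as circles and replicate 2 as squares; dashed lines give the median over all protein-coding genes with a promoter peak in the same library, and an asterisk marks a divergent protein-coding partner. Mrpl17 stands at the top with 8.999 and 5.96, and the scale of the heights is not known to be the same in both libraries.

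The tallest promoter peak belonged to Mrpl17, a large subunit protein near the polypeptide exit tunnel. Its height was 8.999 in replicate 1 and 5.96 in replicate 2 (7.48 ± 2.15, SD, n = 2, an SD that mixes scaling with signal). The gene runs along chr7:105803206-105811099 on the minus strand, and its peak in replicate 1 covered chr7:105811041-105811240 with no other coding gene near. Mrpl34, another bacterial-type protein of the large subunit, followed with 8.40 and 5.95. Among all genes with a peak, Mrpl17 was at percentiles 98.9 and 98.8 and Mrpl34 at 98.3 and 98.8.

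Mrpl47, at the tunnel exit, had 8.80 and 5.34, from a peak that covered none of its annotated starts in either library. That peak was centred 257 bp downstream of the nearest Mrpl47 start, and nearer a start of Ndufb5. Mrpl18, the protein that in bacteria binds 5S ribosomal RNA, had 7.42 and 5.65. Mrpl2, which lies close to the peptidyl transferase centre, had 8.30 and 4.62. Mrpl47, Mrpl18 and Mrpl2 have a divergent partner, described further on. Mrpl45, which anchors the ribosome to the inner membrane, had 7.86 and 5.05 with no divergent partner. Mrpl49, a mitochondria-specific protein, had 7.60 and 5.19. Mrpl44, with its ribonuclease III-like fold, had 7.75 and 5.03. The list of the 10 tallest ended with Mrps18b, the only small subunit gene among them, at 6.63 and 4.38, and Mrpl15, at 6.59 and 4.22. Replicates 1 and 2 shared 9 of their 10 tallest members.

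At the low end, Mrps25, a mitochondria-specific small subunit protein, had 1.94 in replicate 1 and 1.19 in replicate 2. Mrpl23, a tunnel exit protein, had 2.13 and 1.06, and Mrpl38 had 1.97 and 1.24. Mrpl13 had 1.95 and 1.31, and Mrps24, the counterpart of bacterial S3, had 2.37 and 1.27. These 5 were still between percentiles 30.7 and 38.4 of all genes with a peak in replicate 1, and between 18.6 and 26.3 in replicate 2.

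Since the scaling of heights is not stated, a ratio of the libraries mixes scaling with signal, and it is given only to place members relative to each other. All 78 members had the larger number in replicate 1, as did 98.6% of open genes. The ratio of replicate 1 over replicate 2 ran from 1.04 to 2.17 with a median of 1.53, against a median of 1.49 over open genes. The highest ratios were those of Mrps15, with 2.89 and 1.33, Mrpl23, with 2.13 and 1.06, and Mrps2, with 2.45 and 1.25. The lowest were those of Mrpl32, a protein that is matured by a mitochondrial protease before assembly, with 3.94 and 3.79, Mrpl24, with 3.14 and 2.87, and Mrpl48, with 4.52 and 4.02. The order of the members was kept between libraries, with a Spearman rho of 0.95 over the 78 members, which share both libraries, against 0.97 over open genes. The tallest peaks of replicates 1 and 2 overlapped for 77 members, and such overlap was not counted over open genes. The exception was Mrpl36, a small bacterial-type protein of the large subunit, whose peaks near the principal start had 2.90 and 2.15 and whose peaks about an alternative start had 3.30 and 2.03, so the taller of the pair changed between libraries.

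Most members had a single promoter peak. In replicate 1, 27 of 78 members (34.6%) had 2 or more, against 62.0% of open genes, and in replicate 2, 22 of 78 (28.2%) against 52.5%. Of cytosolic ribosomal protein genes with a peak, 40% and 33.8% had 2 or more. Oxidative phosphorylation subunit genes with a peak stood at 41.8% and 27.8%. There were 47 members with a single peak in both libraries and 18 with 2 or more in both. Members have a median of 4 annotated starts and open genes 5, and the part of this difference in the count of peaks was not tested. The 18 were Mrpl13, Mrpl14, Mrpl33, Mrpl36, Mrpl37, Mrpl39, Mrpl40, Mrpl41, Mrpl48, Mrpl51, Mrps6, Mrps7, Mrps10, Mrps12, Mrps18b, Mrps23, Mrps28 and Mrps36. The last of these encodes a protein now placed in the oxoglutarate dehydrogenase complex. Some peaks of the strict set overlap each other, as at Mrpl40 and Mrps6, so a count of peaks is not a count of separate open regions.

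Mrpl48, a mitochondria-specific large subunit protein, had the most, 6 in each library. Its principal start carried a peak of 3.62 in replicate 1 and 2.02 in replicate 2. Its tallest peak, of 4.52 and 4.02, lay at an upstream alternative start that faces Rab6a, a gene for a small GTPase of Golgi transport, and its centre in replicate 1 was nearer the Rab6a start. Mrps28, a small subunit protein, had peaks of 6.45 and 5.43 within the same promoter in replicate 1.

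Some members also held peaks inside the gene over 1000 bp from any start. In replicate 1, 17 members held 29 such peaks and in replicate 2, 16 held 24, against 49.1% and 44.6% of open genes with at least 1. Members are short, with a median gene length of 7899.5 bp against 26136 bp for open genes, and the part of length in this difference was not tested. Mrps27, a pentatricopeptide repeat protein of the small subunit and at 70777 bp a long gene, held 4 in each library. Their tallest, at chr13:99353161-99353500 in replicate 1, had a height of 4.22, and in replicate 2 it had 3.35.

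Divergent promoters were counted from the annotation. Of the 78 members, 32 had a protein-coding gene on the other strand whose start lay up to 1000 bp upstream of a member's start or overlapped its 5′ end by up to 100 bp. That is 41.0% (95% exact Clopper-Pearson interval 30.01 to 52.7), against 11.2% of all protein-coding genes and 17.9% of open genes. Cytosolic ribosomal protein genes stood at 18.1% and oxidative phosphorylation subunit genes at 35.3%. With only the 5′ end of each gene in place of every annotated start, the share of members was 24.4%, against 7.23% of all protein-coding genes. The share was 46.9% in the large and 31.0% in the small subunit (23 and 9 members). These shares are a property of the annotation and the same in both libraries, so the interval is not a spread between libraries. It treats members as independent draws, although Mrpl46 and Mrps11 are each other's partner.

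The starts of a pair were a median of 51.5 bp apart, in either direction, with 7 pairs whose 5′ ends overlapped and only 2 over 200 bp apart. The closest were Mrpl13 and Mtbp, which overlapped by 13 bp, Mrpl18 and Tcp1, by 16 bp, and Mrpl47 and Ndufb5, by 20 bp. Mtbp is an MDM2-binding protein, Tcp1 a subunit of the cytosolic chaperonin CCT and Ndufb5 a subunit of respiratory complex I. The pairs with the tallest peaks were Mrpl47 with Ndufb5, Mrpl18 with Tcp1, Mrpl2 with Klc4, Mrpl49 with Fau and Mrpl44 with Wdfy1. Klc4 is a kinesin light chain, and Fau encodes a ubiquitin-like protein fused to a cytosolic ribosomal protein, so the Mrpl49 promoter faces a gene of the cytosolic ribosome.

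Some partners encode mitochondrial proteins. They were picked from the partners as background after the pairs were seen, with no list fixed, and how often other genes have such partners was not counted. Besides Ndufb5, they include Ndufs6, a complex I subunit facing Mrpl36, Sars2, the mitochondrial seryl-tRNA synthetase facing Mrps12, Twnk facing Mrpl43, and Ptcd2, a mitochondrial RNA-processing protein facing Mrps27. Others, such as Klc4, Wdfy1, Ppp1r10, Rab6a, Zfp189 and Gga3, are not usually counted as mitochondrial. Mrpl46 and Mrps11 face each other at 30 bp, a large and a small subunit gene on a single tallest peak of 2.52 in replicate 1 and 1.71 in replicate 2. The 78 members thus had 77 distinct tallest peaks. The tallest peak covered a start of both genes for 22 of the 32 members with a partner in each library. The same was not counted for open genes with a partner.

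Which gene a shared peak belongs to cannot be told apart in these data, and 16 members in each library had their tallest peak centred nearer to a start of another coding gene (20.5%), against 10.2% and 10.3% of open genes. Among the 10 tallest members these were Mrpl47, Mrpl18, Mrpl49 and Mrps18b, in both libraries. In replicate 1 the tallest peak of Mrps18b lay 431 bp upstream, on the Ppp1r10 side, and a second of 5.11 was centred 71 bp upstream. Members with a partner had a median height of 4.14 in replicate 1 and 3.12 in replicate 2, and those without 3.50 and 2.37. Open genes showed the same order, with 4.49 and 2.99 for the 2303 with a partner and 2.98 and 1.98 for the 10579 without. The ranges with and without a partner overlapped, and the tallest member of all, Mrpl17, has none.

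**Figure D3:**
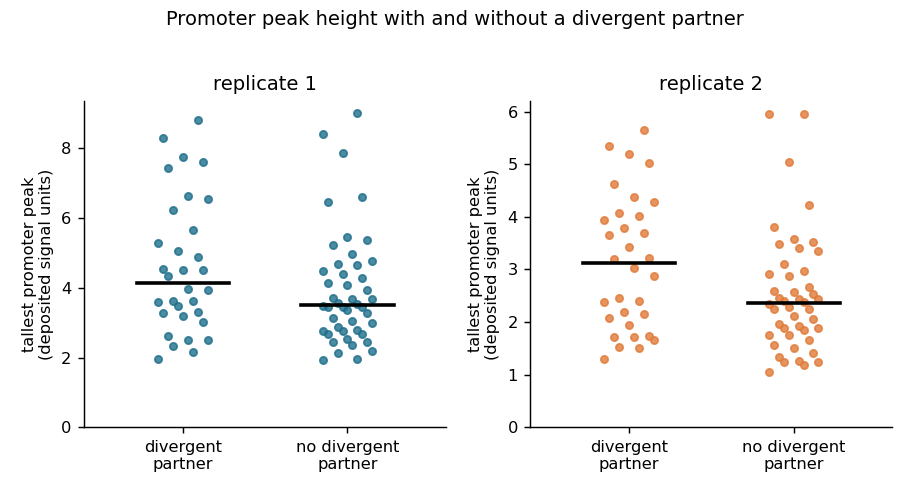
Height of the tallest promoter peak (vertical axis, deposited signal units) of the 32 members with and the 46 without a divergent protein-coding partner, per library, a point per gene; black bars are medians. The medians are 4.14 and 3.50 in replicate 1 and 3.12 and 2.37 in replicate 2, over ranges that overlap.

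Footprints lay close to the starts of nearly all members. A footprint centre was within 100 bp of a transcript start for 78 of 78 members in replicate 1 and 77 in replicate 2, 99.4% ± 0.907 (SD, n = 2), against 59.5% and 54.0% of all protein-coding genes and 93.3% and 88.8% of open genes. The single exception was Mrpl47 in replicate 2, where the nearest centre lay 106 bp away under a peak of 5.34. Within 250 bp of a start there were 569 footprints in replicate 1 and 410 in replicate 2, 7.29 and 5.26 per member, against 7.28 and 5.01 per open gene. Members were thus close to open genes in number. Footprints of the pair Mrpl46 and Mrps11 count for both, and 565 and 405 intervals were distinct.

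Footprint positions were summarised by distance. Within 50 bp lay 46.9% of those in replicate 1 and 52.9% in replicate 2, against 39.9% and 43.2% for open genes. The median distance was 56 bp and 48 bp, against 70 bp and 63 bp. Measured from the principal start alone, 33.3% and 39.8% lay within 50 bp, against 29.6% and 33.8%. In replicate 2, 77.1% of the members' footprints overlapped one of replicate 1, against 72.6% for open genes.

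**Figure D4:**
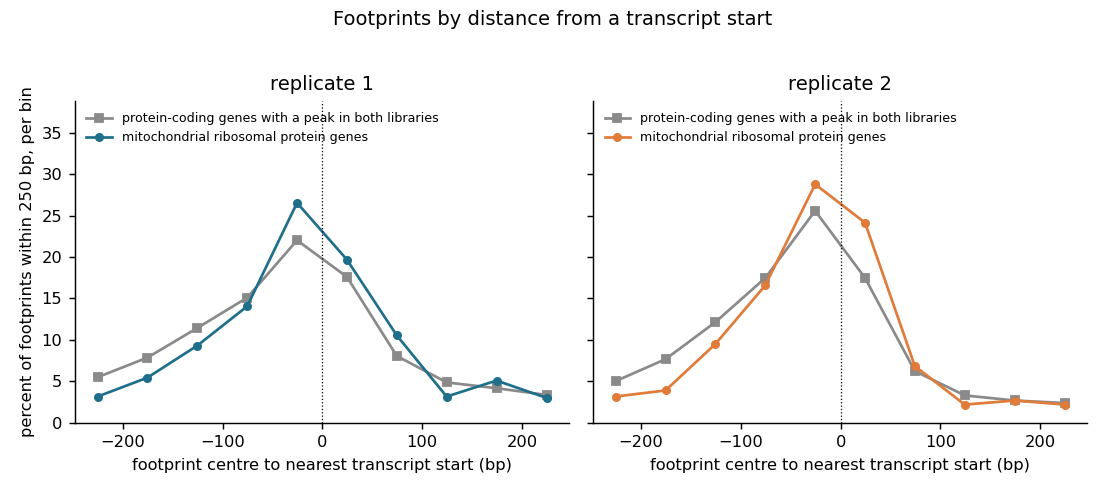
Percent of footprints within 250 bp (vertical axis) by signed distance of the footprint centre from the nearest transcript start (horizontal axis, bp, upstream negative, bins of 50 bp), per library, for the members (coloured) and for protein-coding genes with a peak in both libraries (grey). In the bin just upstream of the start members had 26.5% in replicate 1 and 28.8% in replicate 2, against 22.0% and 25.6%.

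Mrpl48 had the most footprints within 250 bp of its 10 starts, 28 in replicate 1 and 19 in replicate 2, with 15 found in both. Mrpl40, a protein of the central protuberance, had 16 and 11, with 10 in both. Mrpl36 had 13 and 9, of which 10 of replicate 1 overlapped a footprint of replicate 2. Mrpl17, with its peak the tallest, had 9 in each library and 8 in both, and Mrpl45 had 8 in each and 7 in both, as many as Mrpl10, a stalk protein, with 10 and 7. At Mrps15, 5 footprints in each library did not overlap at all. Over the 78 members, which share both libraries, the Spearman rho of height and number of footprints was 0.025 in replicate 1 and 0.17 in replicate 2.

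The promoters of members were mostly CpG-rich. Over the 300-base window from 250 bases upstream to 50 downstream of the principal start, 91.0% of members had an observed-over-expected CpG ratio of at least 0.6, against 71.1% of open genes and 46.8% of all protein-coding genes. The median ratio was 0.82 against 0.76 for open genes. Mrpl1, with 0.39, and Mrpl19, with 0.50, were the lowest. A window at the principal start can miss the tallest peak. That of Mrpl1 was centred 617 bp downstream of the principal start, outside the window, so 0.39 does not describe it. The ETS, NRF1 and YY1 consensus letters all contain CpG, as do some of the others searched. The part of CpG content in the shares that follow was not tested.

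In the same window 29 members (37.2%) held the ETS consensus CCGGAAG, against 11.2% of all protein-coding genes and 17.0% of open genes. The NRF1 consensus GCGCANGCG was present in 15 members (19.2%), against 8.58% and 13.3%. The YY1 consensus AAGATGGCG was present in 8 members (10.3%), against 1.85% and 2.99%. Together 43 members (55.1%) held at least 1 of them, against 19.4% and 29.5%. Both ETS and NRF1 were present in 5 members (6.41%), against 1.61% and 2.72%. Cytosolic ribosomal protein genes stood at 42.2% and oxidative phosphorylation subunit genes at 35.3% for any of these consensus sequences. In the same order, ETS was in 28.9% and 17.6%, NRF1 in 10.8% and 20% and YY1 in 6.02% and 4.71%. Both ETS and NRF1 were in 2.41% and 5.88%.

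For the other consensus sequences searched, each share is given beside that of all protein-coding genes and that of open genes. SP/KLF (GGGCGGG) was present in 32 members (41.0%) against 33.5% and 46.5%. NFY (GCCAAT) was present in 8 members (10.3%) against 17.0% and 19.7%, and the E-box (CACGTG) in 4 (5.13%) against 7.76% and 9.87%. AP-1 (TGANTCA) was present in 4 (5.13%) against 6.66% and 4.32%, and the TATA box (TATAAA) in 7 (8.97%) against 12.5% and 7.03%. CRE (TGACGTCA) was present in 2 (2.56%) against 2.51% and 3.61%, and E2F (TTCCCGCC) in 3 (3.85%) against 2.99% and 4.22%. ERR (AAGGTCA) was present in 4 (5.13%) against 3.97% and 2.98%, and ZNF143/THAP11 (ACTACAATT) in 0 against 0.542% and 0.745%. For ERR, cytosolic ribosomal protein genes (7.23%) and oxidative phosphorylation subunit genes (11.8%) stood above the members. AP-1, the TATA box, SP/KLF, CRE and E2F thus lay between the shares of open genes and of all genes. All were searched on both strands as exact letters, matches that overlap were counted separately, and a match is a description of the letters, not a bound site.

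**Figure D5:**
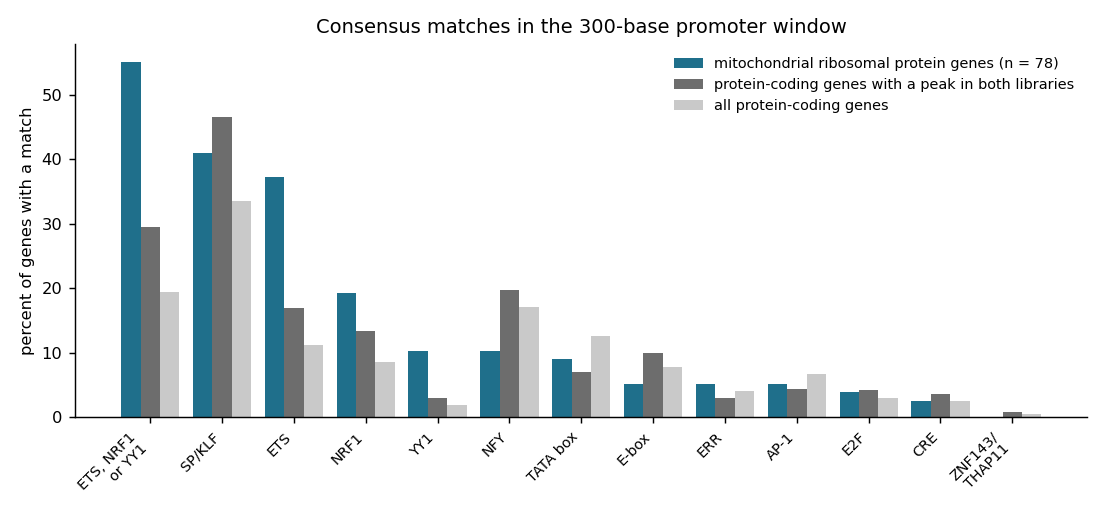
Percent of genes (vertical axis, from 0) whose 300-base promoter window holds each consensus (horizontal axis), for the 78 members, for protein-coding genes with a peak in both libraries and for all protein-coding genes. Members stand above both for ETS (37.2%), NRF1 (19.2%) and YY1 (10.3%), as also for ERR (5.13%), and below both for NFY and the E-box.

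By subunit, ETS was present in 17 of 49 large and 12 of 29 small subunit genes, NRF1 in 12 and 3, and YY1 in 3 and 5. The 15 genes with NRF1 were Mrpl9, Mrpl10, Mrpl12, Mrpl14, Mrpl17, Mrpl22, Mrpl30, Mrpl32, Mrpl36, Mrpl44, Mrpl45, Mrpl57, Mrps9, Mrps21 and Mrps26, named after their values were seen. Members with any of the ETS, NRF1 and YY1 letters had a median height of 3.61 in replicate 1 and 2.35 in replicate 2, and the 35 without had 3.72 and 2.66. Among open genes the order was the other way round, 3.97 and 2.67 for the 3803 with and 2.85 and 1.90 for the 9079 without.

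The sites were then compared with the footprints. Of the 21 NRF1 sites in the members' windows, 20 lay inside a footprint in both libraries, padded by 5 bases on each side (95.2%), against 83.1% and 75.2% of the NRF1 sites of open genes. The exception was a site of Mrpl30, 102 bases upstream of the principal start, while the other NRF1 site of that gene lay in a footprint in both. The 33 ETS sites were in a footprint for 26 in replicate 1 (78.8%) and 15 in replicate 2 (45.5%), against 48.9% and 37.2% of the ETS sites of open genes. Of the ETS sites, 31 of 33 (93.9%) lay between 100 bases upstream and 49 downstream of the principal start, against 2010 of 2665 (75.4%) at open genes.

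The 8 YY1 sites lay in a footprint for 4 in replicate 1 (50%) and 3 in replicate 2 (37.5%), against 48.4% and 33.8% of the YY1 sites of open genes. In 6 of the 8, those of Mrps27, Mrpl37, Mrpl42, Mrps10, Mrps18a and Mrps24, the letters read with the gene and lay 13 to 29 bases downstream of the principal start, where AAGATGGCG contains the ATG triplet. The remaining YY1 sites, at Mrpl36 and Mrps11, read against the gene 72 and 96 bases upstream. That of Mrps11 is the site of the Mrpl46 footprint printed above, which reads with Mrpl46. Among open genes 190 of 397 YY1 sites lay downstream in the sense orientation.

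Counted over footprints and not over windows, ETS letters were in 33 of 569 footprints in replicate 1 (5.80%) and 20 of 410 in replicate 2 (4.88%), against 1.92% and 2.04% at open genes. NRF1 letters were in 23 in each library (4.04% and 5.61%), against 2.62% and 3.31%. YY1 letters were in 7 and 3 (1.23% and 0.732%), against 0.344% and 0.335%. Any of the 12 consensus sequences was in 20.04% of the members' footprints in replicate 1 and 20% in replicate 2, against 17.9% and 19.4% at open genes, so most footprints carried none of the letters searched.

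All 8 listed genes of regulators had a promoter peak in both libraries, against 63.4% and 59.3% of all protein-coding genes. The median height over all protein-coding genes with a promoter peak was 3.02 in replicate 1 and 2.17 in replicate 2. Nrf1 had promoter peaks of 3.43 in replicate 1 and 2.00 in replicate 2, Gabpa, the DNA-binding subunit of GABP, 3.02 and 2.73, and Yy1 3.75 and 2.98. Esrra, the oestrogen-related receptor alpha, had the tallest of the 8 listed regulators, 8.28 and 5.19. The lowest was Ppargc1a, the coactivator PGC-1 alpha, with 1.13 and 0.660. Of the remaining regulators, Pprc1 had 4.84 and 3.36, Gabpb1 2.50 and 1.64 and Ppargc1b 2.04 and 1.27.

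The 71 other genes of mitochondrial translation covered heights of 1.82 to 6.75 in replicate 1, and in replicate 2 their lowest was 1.21 and their highest 5.34. The 3 with the highest mean of each of 4 lists are named. Of the translation factors, Tufm, the elongation factor that brings transfer RNA to the ribosome, had 5.31 in replicate 1 and 3.42 in replicate 2, Taco1, a translational activator, 4.97 and 3.39, and Mrrf, the recycling factor, 4.81 and 2.33. Of the assembly factors, Noa1 had 6.10 and 5.02, Tfb1m, the dimethyltransferase of the small ribosomal RNA, 6.07 and 4.25, and Mtg1, a GTPase, 6.66 and 3.57. Of the aminoacyl-tRNA genes, Gatb, a subunit of the glutaminyl-tRNA amidotransferase, had 6.43 and 5.34, Ears2, the glutamyl-tRNA synthetase, 6.75 and 4.18, and Vars2, the valyl-tRNA synthetase, 6.55 and 3.88. Of the transcription genes, Polrmt, the mitochondrial RNA polymerase, had 5.54 and 3.92, Tfb2m, its initiation factor, 5.37 and 3.85, and Lrpprc, which stabilises mitochondrial messenger RNA, 3.999 and 2.67. Dap3, a small subunit protein without an Mrps symbol and named after its value was seen, had 1.82 and 1.22, below all 78 members in replicate 1.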

How the data were processed

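DNase-seq files of 2 libraries from the right cerebral cortex were used as deposited, on the mm10 assembly per the labels and made from the filtered alignments of each library alone per the deposited notes. For each library the authors deposited 2 peak lists, whose signal value is the peak height, a table of false discovery rate (a q-value per base, listed below 0.05) and a list of footprints called at a constant 0.01 per the file headers and values. The peak caller and the scaling of heights were named in no label or header. All 21 chromosome names matched GRCm38.p6 and 0 intervals ran past a chromosome end. Genes came from GENCODE M21.

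The shorter list of each library was taken as strict. A promoter peak had any base (at least 1 bp) within 1000 bp of any transcript start, and the tallest stood for the gene. Footprints were placed by their centre, and consensus letters were searched as exact matches on both strands in footprints widened by 5 bases and in a 300-base window. Analyses used Python 3.11.15, numpy 2.4.6, scipy 1.17.1, pysam 0.24.0 and matplotlib 3.10.9. The counting steps were tested on simulated data, with 200 of 200 right answers in each of 4 checks.

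Genes named are the 10 tallest and 5 lowest members, the 3 highest and 3 lowest ratios between libraries, the 5 tallest and 3 closest divergent pairs, the 5 with most footprints in both libraries and those with none, those with 2 or more peaks in both libraries and the 3 widest. Other members named singly were chosen after their values were seen. A neuronal gene of the tissue check is not reported here. The members and gene lists were chosen with earlier results of these data known. Alternatives varied the distance to a start, the starts used, the peak set, the overlap rule, the biotype of partners, the bases added to footprints and the libraries included. No test was run, since there is 1 group, and the mean ± SD over both libraries may measure technical spread. The number of libraries and the unknown depth limit the precision.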

Additional observations from a re-analysis of the deposited data

How the results depend on the processing

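Of 30 alternative values, 8 leave out a library and with 2 libraries lie within their spread by construction. Of the other 22, 15 stayed within the spread between the libraries (for divergent partners, within the confidence interval) and 7 moved. These counts do not measure robustness, because the spreads are unequal. The SD was 0 for the share with a promoter peak and 0.0249 for the share with a consensus, so small changes counted as moved. For the median height it was 0.852, which mixes scaling with signal. There even 3.67 with summed peaks, against 3.04, counted as within. The share of members with a promoter peak was 100% in all but 1 of its alternatives and 97.4% with only the 5′ end of each gene, where Mrpl35 and Mrps24, whose annotated 5′ ends lie 3159 bp and 7993 bp from the principal start, had no peak. The share with a footprint within 100 bp of a start was 88.5% with only the 5′ end, 97.4% with only footprints inside a strict peak and 96.2% with only the principal start. The share with a divergent partner was 24.4% with only 5′ ends and 46.2% with partners of any biotype. The share of footprints with a listed consensus was 13.8% with 0 bases added and 24.3% with 10. The principal start was added as an alternative after seeing the data. Leaving out a library gave 100% to 100% for promoter peaks, 2.44 to 3.64 for the median height, 98.7% to 100% for footprints and 20% to 20.04% for consensus matches. No paired analysis was possible because there is 1 group. With 2 libraries of unknown depth, a spread is a single difference, a footprint missing in the library with fewer footprints was not shown to be absent, and heights of unstated scaling show no difference between libraries.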
